A study of Homo sapiens with 4 samples.

Results

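The cassette exons examined here lie in genes whose symbol is ZNF followed by a number, the naming series given to human zinc finger genes. A cassette exon is spliced into some transcripts of a gene and left out of others. Selection by symbol took 673 of the 31408 events of the authors' deposited table. Collapsing events that share chromosome, strand, start and end gave 580 unique exons in 270 genes, of 27483 unique exons in the whole table.

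The libraries came from HEK293T, a human embryonic kidney cell line. The labels describe 4 of them, 2 from clones genotyped as wild type and 2 from clones genotyped as lacking RBFOX2, an RNA-binding protein that regulates splicing and binds the element GCATG. All 4 clones, the wild-type ones included, descend from cells given the plasmids PX459 and pgRGFP with guides on either side of RBFOX2. Each clone grew from 1 sorted cell, so a difference between clones and a difference between genotypes share the same 4 cultures. The table compares a first with a second set of libraries, and neither its header nor the labels say which set is which genotype. Every direction below is therefore the first set minus the second set, never knockout minus wild type. The columns with values per library match no label and were not used, so no spread between clones and no read depth is given beside a difference, and each p-value is the authors' own. RBFOX2 itself has 0 events in the table.

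Most ZNF genes encode classical zinc finger proteins, in which tandem fingers, each folded around a zinc ion by cysteines and histidines, read DNA sequence. Many of them carry a KRAB domain at the amino end, which recruits the corepressor TRIM28 and, through it, chromatin-silencing enzymes; others carry a SCAN domain, through which such proteins pair. The gene layout is stereotyped: the KRAB A and B boxes lie on separate short exons, and the fingers usually lie together on 1 long last exon. A cassette exon in such a gene can thus add or remove the KRAB box, shift the reading frame ahead of the fingers, or alter the leader of the messenger RNA.

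The exons that show this layout are printed first. Sequences are those of GENCODE 29 transcripts with the same exon and flanking intron lengths, on the transcribed strand, 5′ to 3′; positions are those of the authors' deposited table, whose build is hg19 per the submitters' processing notes. The next 3 are called exons of 127 nt, and capitals mark the codons of the KRAB A motif that a pattern search found in the translated exon. They lie at chr19:57953253-57953379 (ZNF749), chr19:57027644-57027770 (ZNF471) and chr19:57929280-57929406 (ZNF17), all on the plus strand.
ZNF749: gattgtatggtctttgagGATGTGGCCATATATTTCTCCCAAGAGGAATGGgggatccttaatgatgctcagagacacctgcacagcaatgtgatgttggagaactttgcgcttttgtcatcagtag
ZNF471: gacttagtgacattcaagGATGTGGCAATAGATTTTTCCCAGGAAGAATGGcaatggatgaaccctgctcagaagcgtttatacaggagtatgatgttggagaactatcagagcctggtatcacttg
ZNF17: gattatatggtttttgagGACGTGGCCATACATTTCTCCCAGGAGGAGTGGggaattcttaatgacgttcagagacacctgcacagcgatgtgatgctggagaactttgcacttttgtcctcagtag

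Read base by base, the ZNF749 and ZNF17 exons were identical at 113 of 127 positions (89%), and ZNF471 matched them at 81 and 75 positions. In all 3 the motif codons span bases 19 to 51 of the exon. A further called exon of this length, in ZNF786 (chr7:148777683-148777809, minus strand), did not match the motif pattern, yet it was identical to the ZNF471 exon at 74 of 127 positions. Capitals in it mark 2 copies of GCATG, the element that RBFOX2 binds. GCATG was held by 9.09% of matched called ZNF exons and 10.9% of all matched ZNF exons, and binding was not tested.
ZNF786: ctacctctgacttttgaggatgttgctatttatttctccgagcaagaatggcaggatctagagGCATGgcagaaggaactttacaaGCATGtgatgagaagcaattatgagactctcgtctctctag

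The KRAB B box is shown by the called 96-nt exon of ZNF81 (chrX:47755244-47755339, plus strand), with the codons of its motif in capitals.
ZNF81: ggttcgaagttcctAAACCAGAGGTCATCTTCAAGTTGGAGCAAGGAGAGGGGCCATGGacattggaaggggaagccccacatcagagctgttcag

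The length of ZNF cassette exons was concentrated at a pair of values. An exon of 127 nt was listed for 55 ZNF genes, 9.48% of the 580 exons, while 0.691% of all 27483 exons had this length. ZNF genes thus supplied 55 of the 190 exons of 127 nt in the table. The next most frequent length was 96 nt, with 22 ZNF exons (3.79%, against 1.12% of all exons). The medians were close, 120 nt for ZNF exons and 117 nt for all exons. ZNF exons ranged from 21 to 2589 nt.

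**Figure D1:**
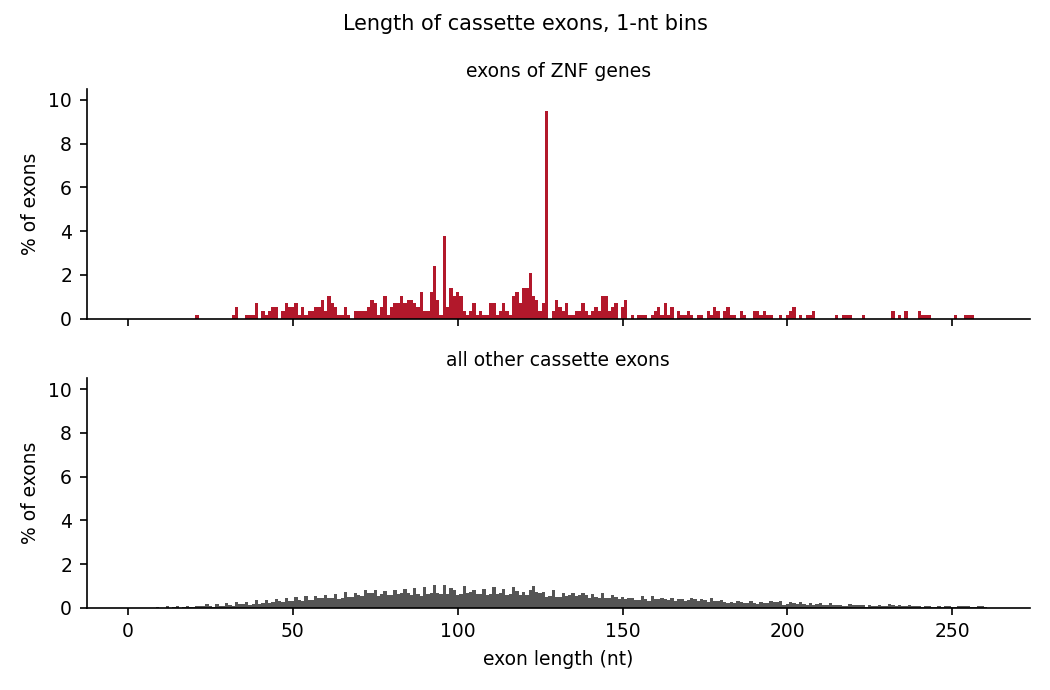
Percentage of cassette exons (y axis) at each exon length in nt (x axis, 1-nt bins; the longest exons lie beyond the axis) for the 580 exons of ZNF genes and, below, for all other exons of the table. The ZNF exons stand at 9.48% at 127 nt and 3.79% at 96 nt, while the other exons form a broad distribution.

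These lengths went in part with the KRAB motifs, at 127 nt for 32 of the 55 ZNF exons and at 96 nt for 6 of the 22. The KRAB A motif was found in 41 ZNF exons, 32 of them 127 nt long, and the whole table held 47 such exons. The motif exons ranged from 123 to 163 nt, and 40 of the 41 had a length not divisible by 3. The KRAB B motif was found in 9 ZNF exons of 96 to 120 nt, 6 of them of 96 nt, and all 9 had a length divisible by 3. For 8 of these 9 the downstream flanking exon was the last exon of the matched transcript. A SCAN motif was found in 4 ZNF exons and at least 1 complete zinc finger in 15.

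Over all 580 exons, lengths divisible by 3 were found for 35.2% (204 exons), against 40.7% in the whole table. Among exons lying wholly within a coding sequence the shares were 43.9% (93 of 212) and 46.2%. No test was made of these shares, since exons of related genes are not independent.

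ZNF cassette exons lay more often in leaders and less often within coding sequence than the table as a whole. A transcript with the same exon and flanking intron lengths was found in GENCODE 29 for 513 ZNF exons (88.4%). Of these, 212 (41.3%) were fully coding, 59 held a start codon, 106 (20.7%) lay in a 5′ UTR, and 122 (23.8%) matched non-coding transcripts alone. In the whole table, 66.1% of matched exons were fully coding and 7.95% lay in a 5′ UTR. The upstream flanking exon was the first of its transcript for 36.1% of matched ZNF exons (24.3% of all), and the downstream flanking exon was the last for 27.9% (16.7% of all). By chromosome, 232 of the 580 (40.0%) were on chromosome 19, which carries 6.4% of all exons.

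What removal of an exon did to the fingers was read from the sequence. A length not divisible by 3 shifts the frame ahead of the fingers, so the outcome follows largely from the length by construction. Skipping was computed on the matched transcript for the 208 fully coding exons with a complete coding start; no protein was measured. Among the 90 exons with a length divisible by 3, the number of fingers was the same with and without the exon for 85. Of 118 exons with other lengths, 93 belonged to transcripts with fingers, a median of 9, and for 88 of these 93 no finger was left after skipping. The other 25 encoded no finger with the exon, and 3 of the 25 encoded fingers only without it. In the 93 the median protein length fell from 567 to 56 residues. Of the 40 KRAB A exons that could be translated, 37 belonged to transcripts with fingers. None of the 40 left a finger after skipping, and the median protein length went from 531 to 23.5 residues. The 9 KRAB B exons, in contrast, kept their finger number in every case.

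**Figure D2:**
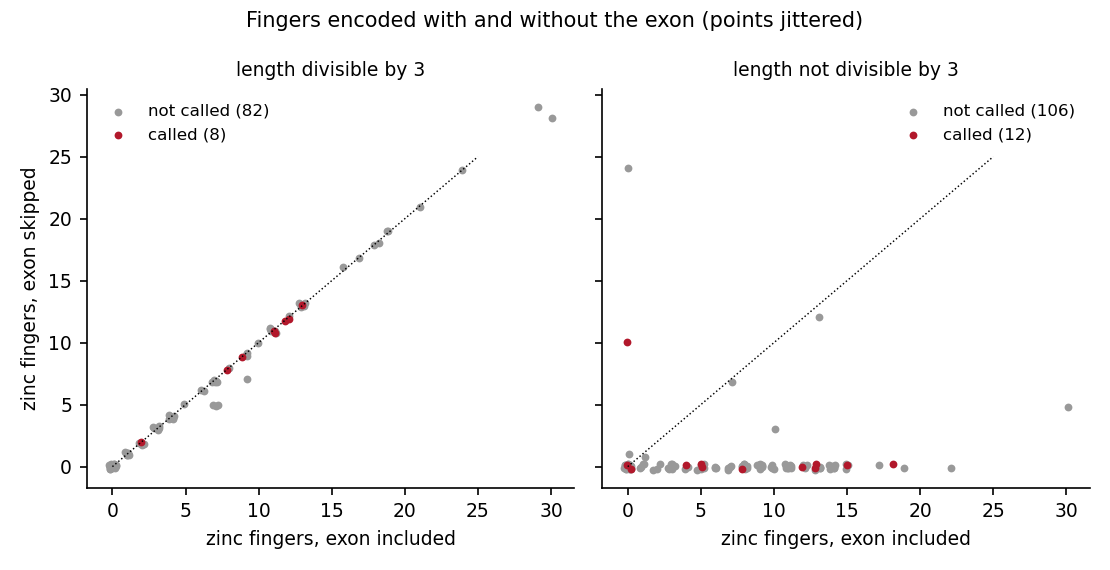
Zinc fingers encoded by the matched transcript with the exon (x axis) and without it (y axis), for 90 exons with a length divisible by 3 (left) and 118 with other lengths (right), points jittered and called exons in red; the dotted line marks equal numbers. On the left 85 exons keep their number, and on the right 88 of the 93 with fingers fall to 0.

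Inclusion was then compared between the sets of libraries. The inclusion level is the fraction of transcripts that carry the exon, estimated by the authors from junction reads corrected for length, and a difference of 1 is a full switch. A positive difference means more inclusion in the first set. An exon was called when at least 1 of its events had an FDR, the authors' false discovery rate, under 0.05 and an absolute difference of at least 0.1. By this rule 47 of the 580 ZNF exons (8.10%), in 41 genes, were called, beside 5.73% of all exons in the authors' deposited table. The Wilson 95% interval of the ZNF share, 6.15% to 10.6%, covers counting error only and treats each exon as an independent draw. Exons of 1 gene, and of genes with like sequence, are not independent, so the interval is no test against the share of all exons. The excess was not tested. Inclusion was higher in the first set for 23 exons (3.97% of ZNF exons, beside 3.08% of all) and in the second set for 24 (4.14%, beside 2.65% of all).

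The differences of ZNF exons were wide. The median absolute difference was 0.373 for called ZNF exons and 0.271 for all called exons, and over all listed exons it was 0.13 and 0.048. Differences reached 0.1 in 344 ZNF exons (59.3%, against 31.3% of all), but 47 (13.7%) of these were called, against 18.3% of all such exons. A deposited p-value of 1 stood beside 161 of the 344. A difference of exactly 1 was listed for 19 ZNF exons, of which 18 had a p-value of 1 and 1 was called. Read depth per exon was not used, so its part in these large uncalled differences was not tested.

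**Figure D3:**
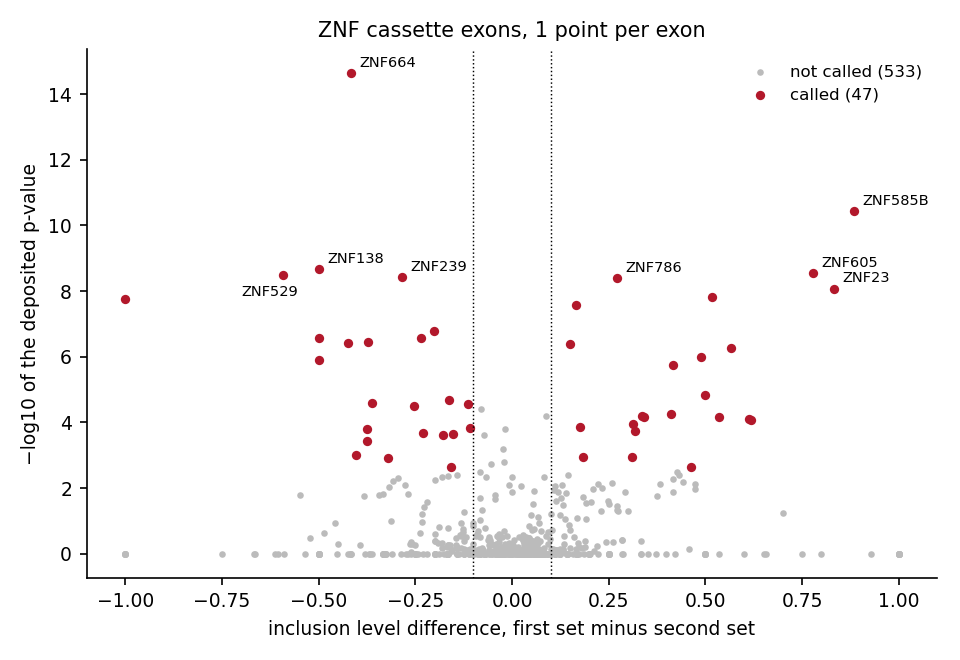
Deposited p-value as −log10 (y axis) against the inclusion difference, first set minus second set (x axis), with 1 point per ZNF exon; dotted lines mark the minimum difference of 0.1. The 47 called exons, in red, lie on both sides, 23 to the right and 24 to the left, and many exons with large differences lie at the bottom with a p-value of 1.

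Of the 41 exons with the KRAB A motif 3 (7.32%) were called, beside 5.73% of all exons and 8.10% of ZNF exons. They were those of ZNF749, ZNF471 and ZNF17 printed above. The authors' deposited table gave the ZNF749 exon a difference of -0.373 (FDR 2.66e-05), the ZNF471 exon -0.5 (FDR 7.77e-05) and the ZNF17 exon -0.375 (FDR 0.00465). All 3 were thus included more in the second set, which is too few exons to read a direction from. Those of ZNF749 and ZNF17 also have like sequence, so they are not independent. In each, skipping on the matched transcript left 0 fingers, from 13 in ZNF749, 15 in ZNF471 and 18 in ZNF17. The ZNF749 and ZNF17 exons had a further event with another upstream exon, at -0.048 and 0.062 with a p-value of 1 in the authors' deposited table. The matched ZNF17 transcript has the listed 41-nt exon directly upstream, the pairing of the event at 0.062 and not of the called event. The fall from 18 fingers in ZNF17 was thus not computed on the called pairing. Transcripts were matched over all events of an exon, so that of ZNF749 need not be of its called event either. Every 31-nt word of the ZNF17 exon also occurs in a transcript of AC003002.3. Whether that gene lies at another place in the genome was not checked, so the assignment of reads to ZNF17 was not tested. The other KRAB A exons ranged up to 0.383 in difference, and 22 of the 41 had a p-value of 1.

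The called exons of 127 nt without a match to the KRAB A pattern had positive differences. The ZNF786 exon is among them, yet it was identical to the ZNF471 exon at 74 of 127 positions. The pattern is strict, so these signs do not contrast exons with and without a KRAB A box. Of 55 ZNF exons of this length 6 (10.9%) were called, 3 in each direction, beside 5.73% of all exons and 15 of the 190 exons of 127 nt in the whole table (7.89%; 6 with a positive and 9 with a negative difference). The ZNF786 exon, with the GCATG copies shown above, had a difference of 0.271 (FDR 5.66e-07) in the authors' deposited table. Its skipping took the matched protein from 782 to 14 residues and from 13 fingers to 0. The 127-nt exon of ZNF75A (chr16:3363049-3363175), which holds a start codon, stood at 0.165 (FDR 2.77e-06), and a further event of it stood at 0.334 with a p-value of 1 in the authors' deposited table. ZNF232 (chr17:5012221-5012347) had 0.567 (FDR 3.68e-05) in the authors' deposited table, and its exon, which precedes the finger exon, was identical to the ZNF749 exon at 42 of 127 positions.

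Of the 9 exons with the KRAB B motif 1 was called, which is too few to set against the 5.73% of all exons. The ZNF81 exon printed above had a difference of -0.231 (FDR 0.00593) in the authors' deposited table, and the matched transcript encoded 12 fingers with and without it. Over all 22 ZNF exons of 96 nt, 3 (13.6%) were called, and each had the higher inclusion in the second set. Among the 308 exons of this length from all genes 14 (4.55%) were called, 10 of them higher in the second set as well. The other called ZNF exons of this length were ZNF317 (chr19:9268656-9268751, difference -0.362, FDR 0.00102) and ZNF268 (chr12, difference -0.152, FDR 0.00636) in the authors' deposited table. The ZNF268 exon matched a non-coding transcript alone, and 13.6% of its words occur in transcripts of 427 other genes. The KRAB B motif was not found in the 96-nt exon of ZNF317. ZNF317 had a second called exon of 242 nt that shares its end, at -0.32 (FDR 0.0237). These 2 ZNF317 exons overlap and are not separate evidence.

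Among the called exons 20 were fully coding, and 12 of these had a length not divisible by 3. With the exon, 9 of the 12 transcripts encoded fingers and 3 did not. Of these 3, ZNF138 (137 nt) and ZNF385B encoded no finger in either form, and 1 exon went the other way, with fingers encoded only after skipping. In all 9 with fingers no finger was left after skipping, and the difference was positive for 5 and negative for 4. Besides the 5 exons of 127 nt just described they comprised ZNF561, ZNF589, ZNF213 and ZNF74. Where an exon had several events, the matched transcript need not have the flanking exons of the called one, as in ZNF17. The 74-nt exon of ZNF213 had a difference of 0.411 (FDR 0.00198) and the 86-nt exon of ZNF74 had 0.614 (FDR 0.00267) in the authors' deposited table. A further ZNF213 event was listed at 0.131 with a p-value of 1 in the authors' deposited table. ZNF589 (53 nt) stood at -0.254 (FDR 0.00121) and ZNF561 (83 nt) at 0.15 (FDR 2.97e-05) in the authors' deposited table. Of the words of the ZNF561 exon, 73.6% occur in transcripts of 2 other genes.

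The 8 called coding exons with a length divisible by 3 left the finger number as it was, with 4 in each direction. The authors' deposited table listed the 114-nt exon of ZNF620 (chr3:40553893-40554006) at 0.535 (FDR 0.00232), where the protein went from 422 to 384 residues with 8 fingers in both forms. A 78-nt exon of ZNF138 had 0.617 (FDR 0.00273) in the authors' deposited table, and 27.1% of its words occur in 8 other genes. In ZNF211 a 39-nt exon (chr19:58145391-58145429) stood at -0.425 (FDR 2.82e-05) and a 156-nt exon of the same gene at -0.157 (FDR 0.0405). The 69-nt exon of ZNF195 (chr11:3381950-3382018) was called in both of its events, at 0.499 and 0.322, in the authors' deposited table. It was the only called exon with more than 1 called event. ZNF714 (99 nt) completed the group with ZNF81 and ZNF317, at 0.183 (FDR 0.0227), with a further event at 0.091 and a p-value of 0.873, in the authors' deposited table.

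The lowest p-value of all ZNF exons belonged to a leader exon. The 118-nt 5′ UTR exon of ZNF664 (chr12:124487970-124488087, plus strand) had a difference of -0.417 (FDR 1.53e-12) in the authors' deposited table. With another downstream exon the same exon had -0.055 (FDR 0.00167), below the minimum difference. Of its 31-nt words 83.0% occur in transcripts of other genes, 504 in all. In 5′ UTRs 7 of 106 ZNF exons were called (6.60%), beside 10.3% of the 1970 such exons in the whole table.

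The other leader exons differed in either direction. ZNF605 (chr12:133524734-133524856) had 0.778 (FDR 4.22e-07) and ZNF529 (chr19:37042779-37042879) -0.593 (FDR 4.82e-07) in the authors' deposited table. ZNF239 (chr10:44063347-44063469) stood at -0.285 (FDR 5.35e-07) and ZNF548 (chr19:57904169-57904316) at -0.236 (FDR 2.06e-05) in the authors' deposited table. A further ZNF548 event, with another upstream exon, was listed at 0.143 with a p-value of 1 in the authors' deposited table. ZNF322 (75 nt) and ZNF202 (144 nt), whose gene encodes a SCAN-domain protein, stood at 0.335 (FDR 0.00222) and 0.318 (FDR 0.00518) in the authors' deposited table.

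The 3 largest called differences lay in exons that no coding transcript was matched to. A 98-nt exon of ZNF585B (chr19:37690302-37690399, minus strand) had 0.884 (FDR 9.24e-09) and a 346-nt exon of ZNF23 (chr16:71495562-71495907, minus strand) 0.834 (FDR 1.09e-06) in the authors' deposited table. Both matched non-coding transcripts alone. A 161-nt exon of ZNF266 (chr19:9544751-9544911, minus strand), which had no match, stood at -1 (FDR 2.06e-06) in the authors' deposited table and was the 1 called exon among the 19 with a full switch. ZNF614 (122 nt) had 0.517 (FDR 1.87e-06) in the authors' deposited table, with 34.8% of its words in transcripts of other genes. ZNF45 (119 nt, no match) had 0.489 (FDR 6.53e-05) in the authors' deposited table. Of 122 ZNF exons matched to non-coding transcripts alone 14 were called (11.5%), beside 6% of the 4770 such exons in the whole table.

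Other called exons matched to non-coding transcripts alone had differences of 0.5 or less in size. ZNF791 had a pair of overlapping exons, of 140 and 91 nt, at -0.203 (FDR 1.34e-05) and -0.163 (FDR 0.000848) in the authors' deposited table. ZNF451, which encodes a SUMO ligase, had a 100-nt exon at -0.114 (FDR 0.0011), and ZNF767 an 84-nt exon at -0.108 (FDR 0.0045) in the authors' deposited table. ZNF3 (37 nt) stood at -0.403 (FDR 0.02), ZNF140 (67 nt) at 0.176 (FDR 0.00421) and ZNF518A (120 nt) at -0.179 (FDR 0.00659) in the authors' deposited table; these 3 were named after their values were seen. The pseudogene ZNF37BP had a 121-nt exon at -0.5 (FDR 2.03e-05); its other event stood at -0.097 with a p-value of 0.116 in the authors' deposited table.

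**Figure D4:**
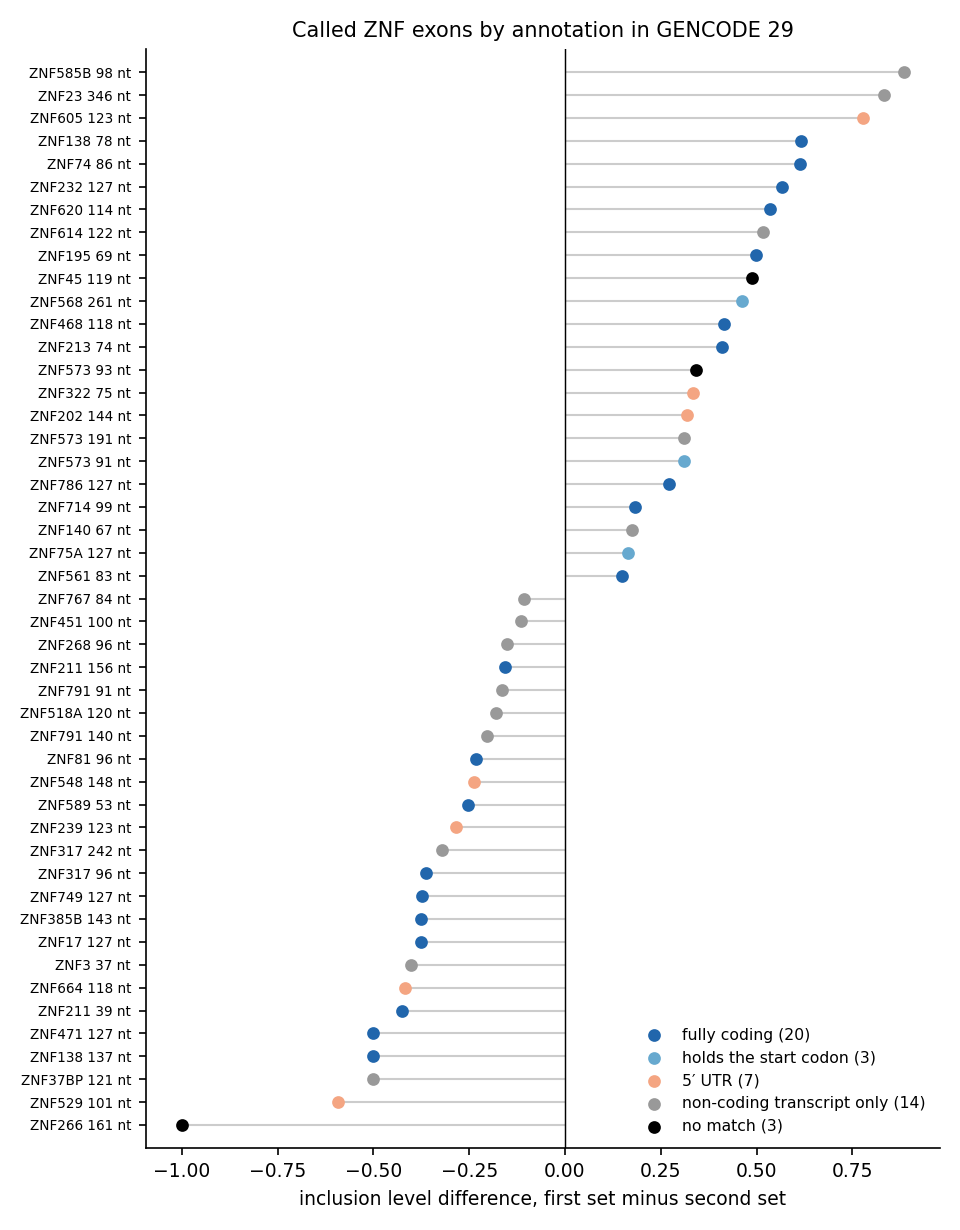
Inclusion difference, first set minus second set (x axis), for the 47 called ZNF exons (rows, with gene and exon length), coloured by their annotation in GENCODE 29. The values run from -1 in ZNF266 to 0.884 in ZNF585B, and the 20 fully coding exons lie on both sides of 0.

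Several genes had more than 1 called exon. There were 5 such genes, and in 4 of them the called events of every called exon had the same direction. ZNF573 had 3 called of 7 listed exons, at 0.342 (93 nt), 0.312 (191 nt) and 0.311 (91 nt) in the authors' deposited table. Its 91-nt exon also had an event at -0.099 with a p-value of 1 in the authors' deposited table. ZNF138 was the exception: its 78-nt exon had a positive difference, and its 137-nt exon (chr7:64291318-64291454) a negative one, -0.5 (FDR 3.31e-07) in the authors' deposited table. Each had a further event with a p-value of 1, at -0.392 for the 78-nt exon and at 0 for the 137-nt exon in the authors' deposited table. The genes with the most listed exons were not those with the most calls, since ZNF195 had 1 called of 11, ZNF561 1 of 10, and ZNF638 and ZNF692 0 of 9 each.

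A call often rested on 1 pairing of flanking exons. Of the 47 called exons 13 took part in several events, and 12 further events of these exons were not called. The difference had the direction of the called event in 7 of the 12, the opposite direction in 4 and was 0 in 1. In 8 of the 12 the p-value was 1.

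Exons were grouped by the domains of their gene, and the called shares below stand beside 8.10% of ZNF exons and 5.73% of all exons. Genes with a KRAB A motif held most of the exons as well as most of the calls. KRAB A and finger motifs were found in 145 of the 271 gene identifiers, which held 309 of the 580 exons. Of these 309, 30 (9.71%) were called, 16 with a positive and 14 with a negative difference. In genes with fingers but neither a KRAB A nor a SCAN motif, 10 of 185 exons (5.41%) were called. The KRAB A motif is strict and the KRAB B motif was not used here, so this second class still holds KRAB genes, such as ZNF26 and ZNF337, whose 96-nt exons carry the KRAB B motif. No finger of this pattern was found in the proteins of 13 gene identifiers with 39 exons, and 1 of these was called, in ZNF385B (143 nt, difference -0.375, FDR 0.00934 in the authors' deposited table). For a further 13 identifiers GENCODE 29 gave no protein under that identifier, so a finger motif was found for 245 of the 271. These 13 include those of ZNF2, ZNF33B and ZNF280B, whose listed exons all lacked a match. A missing protein thus need not mean a gene without fingers. Genes with a SCAN motif and no KRAB A motif had 4 called of 24 exons (16.7%), in ZNF75A, ZNF232, ZNF213 and ZNF202. All 4 were higher in the first set, which is too few exons to read a direction from. These 4 are named because they make up the whole count, after their values were seen. As the KRAB A motif is strict, this class may hold KRAB genes too. On chromosome 19 22 of 232 ZNF exons (9.48%) were called, and elsewhere 25 of 348 (7.18%).

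Of the 15 ZNF exons that encode a complete finger 0 were called, beside 2 of the 51 such exons in the whole table (3.92%) and 5.73% of all exons. This is too few exons to tell 0 calls from these shares. Of the 15, 0 had an unadjusted p-value under 0.05 in the authors' deposited rMATS output. Their differences ran from -0.2 to 0.15.

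GCATG was no more frequent in called ZNF exons than over all ZNF exons. It was searched as printed on the transcribed strand of the exon, and it was held by 4 of the 44 matched called ZNF exons (9.09%), 10.9% of all 513 matched ZNF exons and 11.6% of the 24785 matched exons of the table. The 4 were in ZNF786, ZNF791, ZNF317 and ZNF211; ZNF786, with 2 copies, was higher in the first set, while the other 3, with 1 copy each, were higher in the second. Flanking introns, where RBFOX proteins often bind, were not searched here.

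Genes of the corepressor machinery through which KRAB proteins act were examined from a list of 30. Of these, 27 had a listed exon, 102 exons in all, and 6 exons (5.88%) in 4 genes were called, 3 in each direction, a share near the 5.73% of all exons. The called members are therefore given as values only. TRIM28, the scaffold of this pathway, had 2 listed exons and 0 called; SETDB1, its histone methyltransferase, was among the 3 genes with no listed exon. Both called exons of GATAD2A, a subunit of the NuRD remodelling complex, had positive differences, of 0.491 (89 nt, FDR 9.3e-13) and 0.301 (297 nt, FDR 0.0489) in the authors' deposited table; each was called in 1 event, of 6 and 3 listed. FAM208A, also known as TASOR, a subunit of the HUSH silencing complex, had a 106-nt exon at 0.152 (FDR 7.05e-06) in the authors' deposited table. Of the other NuRD genes, MTA1 had a 36-nt exon at -0.233 (FDR 0.000321), and CHD3 a pair of overlapping exons at -0.161 and -0.194 in the authors' deposited table.

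Around the FDR limit the exons with a difference of at least 0.1 were closely spaced. Just inside lay ZNF317 (242 nt), ZNF568 (261 nt; difference 0.462, FDR 0.04) and ZNF211 (156 nt) in the authors' deposited table. Just outside lay ZNF81 (119 nt; 0.428, FDR 0.0508), ZNF346 (234 nt; 0.146, FDR 0.0596) and ZNF518A (151 nt; 0.433, FDR 0.0609) in the authors' deposited table.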

How the data were processed

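A single table was used, which the authors deposited in the layout of rMATS for skipped exons quantified by junction reads, per its name and header. STAR 2.7.3a and the build hg19 are listed in the submitters' processing notes; the rMATS version and annotation are not given in the sources used here. The authors deposited a p-value and an FDR per event, and the FDR equalled a Benjamini-Hochberg adjustment over all 31408 events. The inclusion difference was deposited as a score between -1 and 1, with effective lengths in nt (94 for skipping, 97 to 188 for inclusion). The 6 columns of values per library carry no sample name and were not used, so inclusion per library was not computed and depth is not reported here; no count model was run.

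Exons were matched to GENCODE 29 by gene identifier, exon length and both flanking intron lengths, without coordinates. Intron lengths of any event of the exon were accepted, so the matched transcript need not be that of the called event. Each exon took its called event with the lowest p-value. Motifs were sought in translated exons: for a finger, cysteine, 2 residues, cysteine, 12, histidine, 3 or 4, histidine; for KRAB A, Asp-Val, 3 residues, Phe, 2, 2 acidic residues and Trp, or Leu-Tyr-Arg, an acidic residue or Asn, and Val-Met; for KRAB B, Lys-Pro, 8 residues, Gly, 2, Pro-Trp; for SCAN, Cys, 2 residues, Trp-Leu, 1, Pro-Glu. Sharing between genes was the percentage of an exon's 31-nt words found in GENCODE 29 transcripts of another gene. Named exons were the 15 most significant per direction with 1 per gene, the 3 on either side of the FDR limit, the groups of the most frequent lengths and the called exons of the corepressor list; other exons were named after their values were seen. The members, lists and tests were chosen with earlier results of these data known. On simulated p-values and differences for 31408 events, the calling procedure called 200 of 200 planted events and 1 other. The planted values were set inside both limits, so this checks only that the filter runs and says nothing about the calls. Software was Biopython 1.88 and matplotlib 3.10.9 with scipy 1.17.1, pandas 2.3.3 and numpy 2.4.6 under Python 3.11.15. The sequence of 1 called exon, and results that rest on it, are not reported here, so 1 exon taken by the naming rule is not named.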

Additional observations from a re-analysis of the deposited data

How the results depend on the processing

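Under a Bonferroni correction over all events, 20 ZNF exons were called in place of 47, with a median absolute difference of 0.494 in place of 0.373; the stricter limit lowers the count by construction. Under this correction 3.45% of ZNF exons and 1.68% of all exons were called. Over the other alternatives run for the count (FDR limits of 0.01 and 0.1, no minimum difference or one of 0.2, correction for the number of events per exon, read-through symbols left out, 1 exon per gene) it ranged from 37 to 60. The share higher in the first set ranged from 44.4% to 51.4% over these settings. Among alternatives chosen after seeing the data, leaving out exons that share at least 50% of their words with another gene gave 44 exons, and leaving out differences of exactly 0.5 or 1 gave 43, of which 53.5% were higher in the first set. Of the 30 exons with the lowest p-values by direction, 4 were not called at a minimum difference of 0.2 and 10 under Bonferroni correction. No paired analysis was possible because no library column names a clone or its number; for the same reason leaving out each clone was not run, and no result shows how far 1 clone decides a call.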

Other observations

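Related families named by other symbols held few cassette exons in the authors' deposited table. ZBTB genes, whose proteins pair a BTB domain with fingers, had 40 exons in 23 genes, of which 4 were called. ZSCAN genes had 3 called of 19 exons, ZKSCAN genes 1 of 7 and ZFP genes 0 of 6. Together 8 of these 72 exons (11.1%) were called, beside 5.73% of all exons (1575 of 27483).

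Some ZNF exons passed the FDR limit with a difference too small for a call. ZNF121 (163 nt, 5′ UTR) had -0.08 (FDR 0.00146), and ZNF207, whose protein binds microtubules and the checkpoint protein BUB3, had a coding 93-nt exon at -0.073 (FDR 0.00643) in the authors' deposited table. Both were chosen with their values in view. A difference of exactly 0.5 in absolute value was listed for 3 called ZNF exons, in ZNF138, ZNF37BP and ZNF471, and each was higher in the second set.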
